A study of Homo sapiens with 3 samples.

Results

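The regions described here were the ChIP-seq peaks of RUNX2 and CBFB on the long arm of human chromosome 17 in SAOS2 cells. They were all peaks of both lists on that chromosome that started past position 25300000 of hg19. The long arm held 451 of the 9941 RUNX2 peaks and 1157 of the 27246 CBFB peaks. SAOS2 is an established osteosarcoma cell line without p53, and it was grown untreated at under 20 passages. The study had 3 samples of these cells, each 1 library: a ChIP with a custom RUNX2 antibody, a ChIP with a CBFB antibody from Bethyl, and input DNA without antibody. The chromosome was chosen by its count of RUNX2 peaks per Mb, and the interval from 73 to 80 Mb was chosen as its densest stretch, so these densities are a description and were not tested.

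RUNX2 is the RUNX-family transcription factor that directs osteoblast differentiation, and it binds DNA at a short core motif. CBFB is its partner, which does not contact DNA itself and strengthens the binding of RUNX proteins, so a site held by the complex can be recovered with either antibody. The long arm of chromosome 17 carries the collagen gene COL1A1, the HOXB cluster, the type I keratin genes and, near its end, a gene-rich stretch with SEPTIN9, SOCS3, TIMP2 and the Polycomb genes CBX2 and CBX8.

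The sequences of 7 of the highest-scoring RUNX2 peaks are shown because they hold the core TGTGGT, searched on both strands, and because their surroundings differ. Each is 60 bases of hg19, read 5′ to 3′ on the strand that spells the core, with the copy of the core nearest to the peak midpoint in capitals.
BAHCC1 intron, chr17:79399114-79399173, plus strand: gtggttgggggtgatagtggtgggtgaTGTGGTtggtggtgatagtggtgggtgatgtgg
BAIAP2 intron, chr17:79055904-79055963, plus strand: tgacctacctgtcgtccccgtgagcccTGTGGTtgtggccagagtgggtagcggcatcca
VMP1 intron, chr17:57864036-57864095, minus strand: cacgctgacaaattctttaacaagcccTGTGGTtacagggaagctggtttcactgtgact
CDC42EP4 intron, chr17:71287824-71287883, minus strand: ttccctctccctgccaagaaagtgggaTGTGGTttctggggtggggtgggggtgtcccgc
BAHCC1 intron, peak of the next highest score in that gene, chr17:79396815-79396874, plus strand: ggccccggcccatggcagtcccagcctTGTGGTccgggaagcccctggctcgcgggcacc
ENSG00000267737 intron, chr17:76325865-76325924, minus strand: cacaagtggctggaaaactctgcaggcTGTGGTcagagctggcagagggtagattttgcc
RPTOR intron, chr17:78865604-78865663, minus strand: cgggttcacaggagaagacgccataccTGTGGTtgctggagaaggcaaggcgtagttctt
In 6 of these the core stood in unlike sequence. In the BAHCC1 peak of the highest score it belonged to a tandem repeat, and the central 200 bases of that peak, chr17:79399037-79399236 on the plus strand, are given with each copy of the core in capitals.
BAHCC1 repeat: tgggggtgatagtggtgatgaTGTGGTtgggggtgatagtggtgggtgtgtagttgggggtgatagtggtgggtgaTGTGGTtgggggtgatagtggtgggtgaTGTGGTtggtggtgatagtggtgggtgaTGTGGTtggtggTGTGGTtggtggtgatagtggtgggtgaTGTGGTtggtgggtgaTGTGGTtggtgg

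RUNX2 peaks were denser on the long arm than on the short arm. The long arm had 8.07 RUNX2 peaks per Mb (exact Poisson 95% interval 7.34 to 8.85, 451 peaks over 55.9 Mb). The short arm had 3.60 per Mb (2.90 to 4.42, 91 peaks over 25.3 Mb), and chromosomes 1 to 22, X and Y together had 3.21. CBFB peaks numbered 20.7 per Mb on the long arm (19.5 to 21.9), 9.96 on the short arm (8.77 to 11.3) and 8.79 over all chromosomes. The short arm holds 3.2 Mb of unknown bases (N), and without N the RUNX2 densities were 8.10 per Mb on the long arm and 4.12 on the short arm. Both arms had similar densities of protein-coding genes, at 15.1 and 13.7 per Mb. Such intervals cover counting error only, since each antibody had 1 library and there were no replicates. The lists gave no read counts, so the depth behind each peak is unknown.

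The density was not spread evenly along the arm. Up to 55 Mb, the long arm had 3.70 RUNX2 peaks per Mb (3.04 to 4.46, 110 peaks), close to the value of the short arm. It had 9.17 per Mb from 55 to 73 Mb (165 peaks), 22.3 per Mb from 73 to 80 Mb (18.9 to 26.1, 156 peaks) and 16.7 per Mb beyond (10.2 to 25.8, 20 peaks). The CBFB list stepped at the same places, with 11.1 peaks per Mb up to 55 Mb, 23.6 from 55 to 73 Mb, 49.3 from 73 to 80 Mb and 46.9 beyond. The edges at 55 and 80 Mb were set after these counts were seen. The number of DNA copies along the chromosome was not measured here, because the input library was not analysed, and its part in these densities and in the widths given below was not tested.

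**Figure D1:**
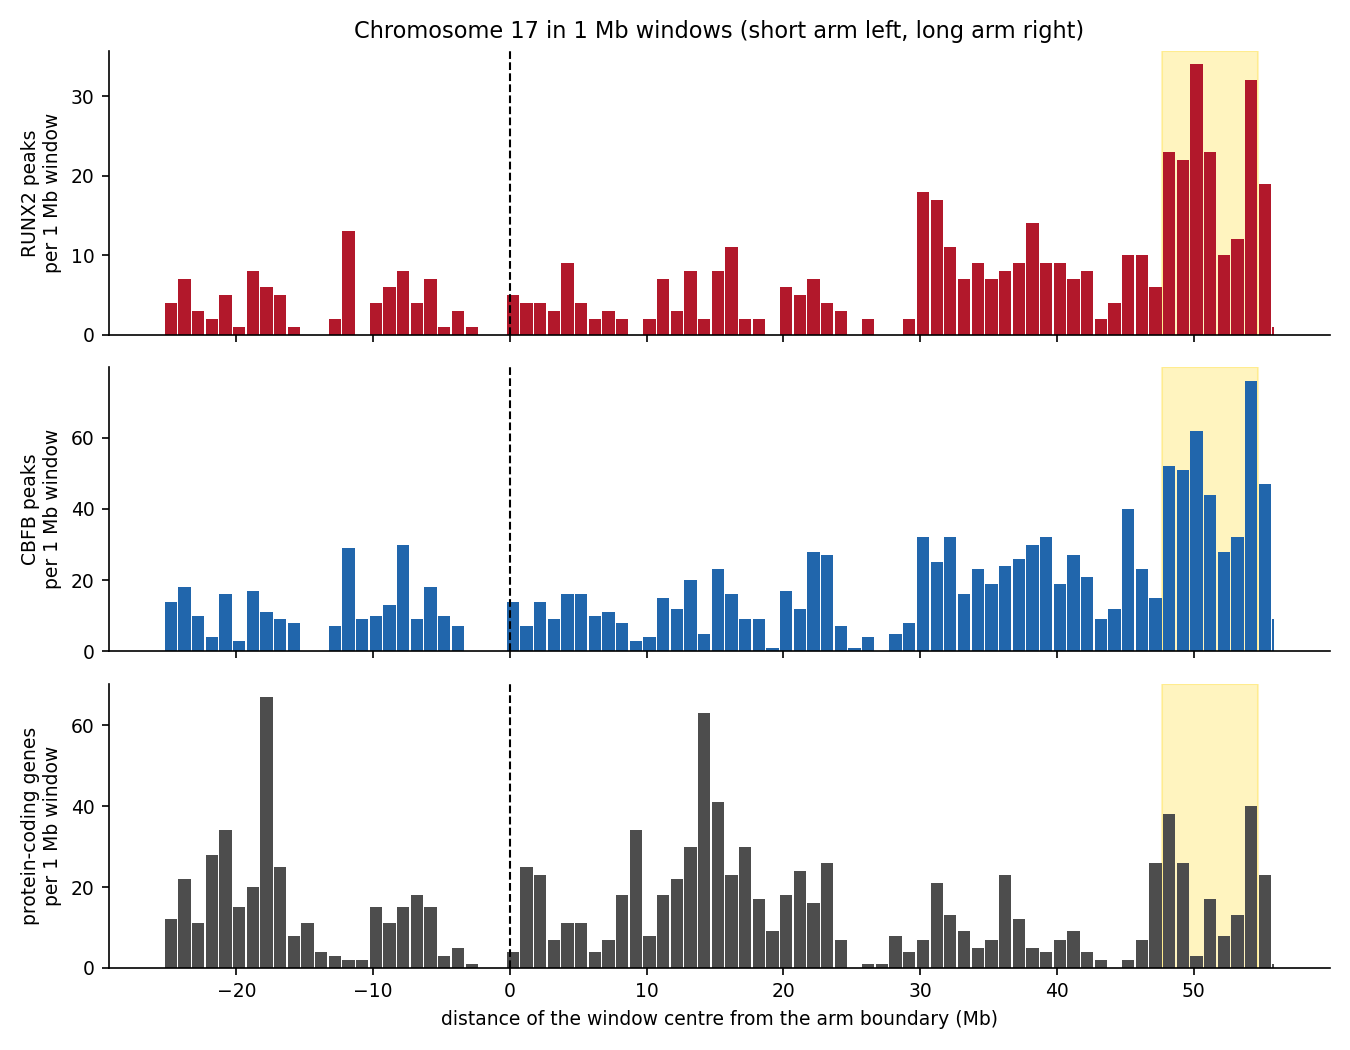
RUNX2 peaks, CBFB peaks and protein-coding genes in 1 Mb windows of chromosome 17, by distance of the window centre from the arm boundary in Mb (dashed line; short arm left, long arm right). The yellow band marks 73 to 80 Mb, where windows reached 34 RUNX2 and 76 CBFB peaks, while the gene counts peaked elsewhere.

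The step at 55 Mb did not follow the number of genes. Up to 55 Mb the long arm held 510 protein-coding genes and 21.6 RUNX2 peaks per 100 genes, near the 26.2 per 100 genes of the short arm. From 55 to 73 Mb it held 163 genes and 101 RUNX2 peaks per 100 genes, and from 73 to 80 Mb 145 genes and 107.6 peaks per 100 genes (91.4 to 126). All chromosomes together had 49.2 RUNX2 peaks per 100 protein-coding genes. CBFB peaks per 100 genes numbered 64.9 up to 55 Mb, 261 from 55 to 73 Mb and 238 from 73 to 80 Mb, against 72.6 on the short arm, so the stretch from 55 to 73 Mb was the higher of the latter stretches on this scale. Chromosome 17 as a whole ranked 1 in RUNX2 peaks per Mb and 2 in protein-coding genes per Mb, but 13 in RUNX2 peaks per 100 genes. The GC content of the sequence was 44.7% up to 55 Mb, 43.3% from 55 to 73 Mb and 52.2% from 73 to 80 Mb.

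**Figure D2:**
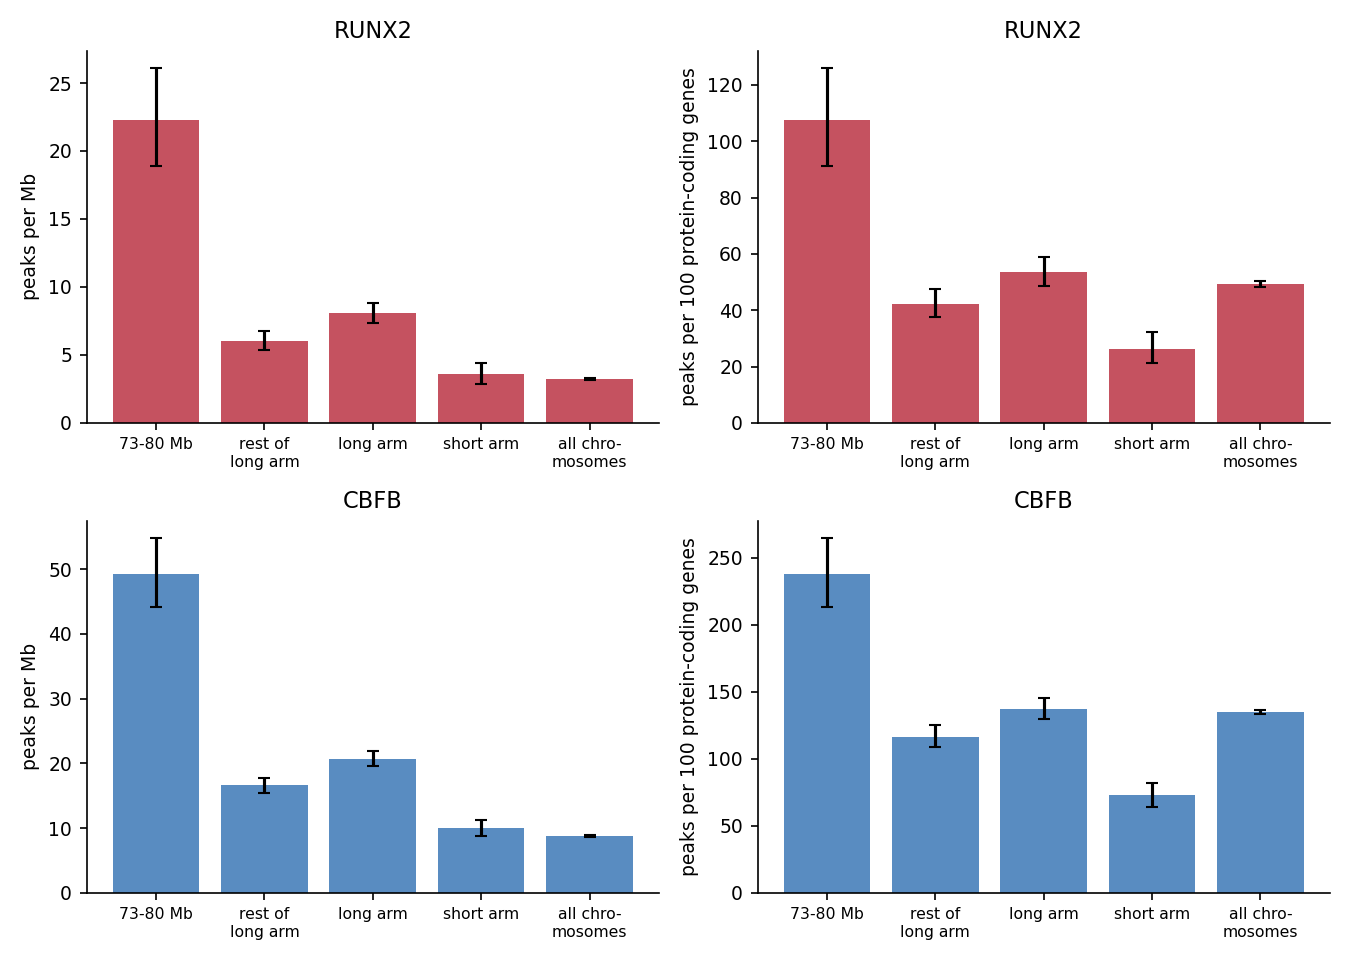
Peaks per Mb (left) and per 100 protein-coding genes (right) for RUNX2 (top) and CBFB (bottom), with exact Poisson 95% intervals as error bars. Of the 5 stretches drawn, 73 to 80 Mb had 22.3 RUNX2 peaks per Mb and 107.6 per 100 genes, and 49.3 CBFB peaks per Mb and 238 per 100 genes.

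Counts in single windows varied widely. The long arm had 55 full 1 Mb windows with 0 to 34 RUNX2 peaks and a median of 7, and the 22 windows of the short arm had 0 to 13 with a median of 4. The window from 75 to 76 Mb held the most RUNX2 peaks, 34 with 62 CBFB peaks, beside the starts of only 3 protein-coding genes: SEC14L1, SEPTIN9 and TNRC6C. The window from 39 to 40 Mb, with keratin and keratin-associated genes, held 63 protein-coding genes, 2 RUNX2 peaks and 5 CBFB peaks. Across the 55 windows, Spearman's rho of RUNX2 peaks was 0.156 with protein-coding genes, 0.464 with GC content and 0.927 with CBFB peaks. These windows neighbour each other on 1 chromosome and come from the same 2 libraries, so no p-value is given. In the genome, 68 of 3089 windows (2.20%) held 15 or more RUNX2 peaks, and 8 of the 68 were on the long arm of chromosome 17.

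**Figure D3:**
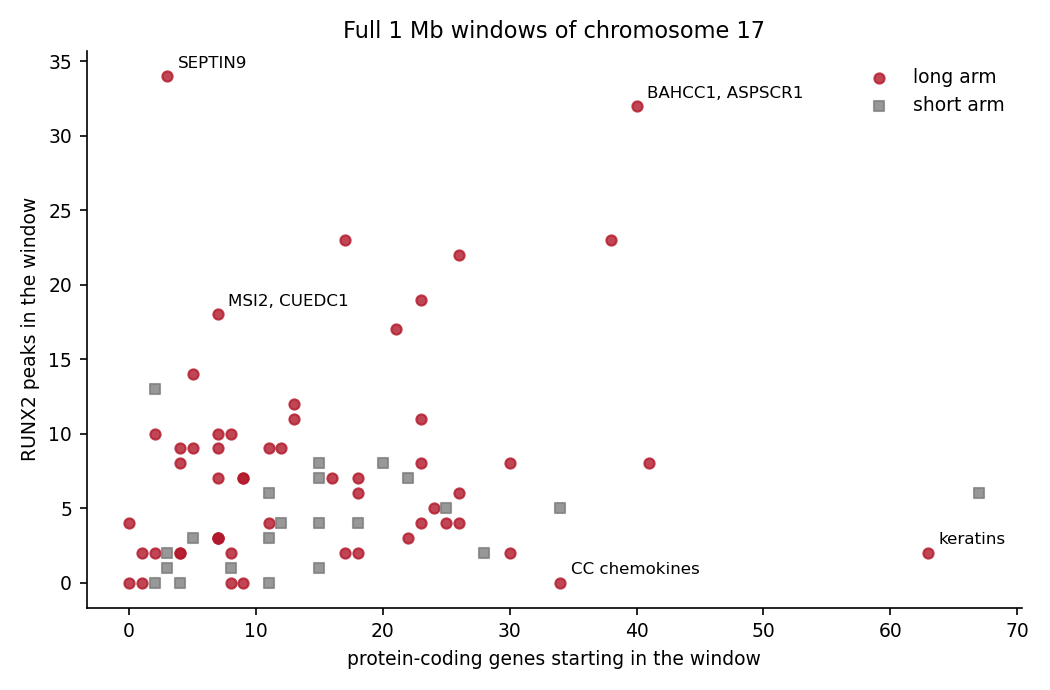
RUNX2 peaks against protein-coding genes in full 1 Mb windows of chromosome 17, with long-arm windows as red circles and short-arm windows as grey squares. The SEPTIN9 window had 34 peaks and 3 genes, and the keratin window had 2 peaks and 63 genes.

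In the 7 windows from 73 to 80 Mb, the genes with the most RUNX2 peaks within 25 kb had diverse roles. Peaks were counted over the gene body and its flanks without scaling to gene length, which favours long genes. UNK, an RNA-binding zinc finger protein, led the window from 73 Mb with 5 RUNX2 and 5 CBFB peaks. MXRA7 led the next window with 6 RUNX2 and 10 CBFB peaks, and the highest of them, with a score of 420, lay in the neighbouring JMJD6. SEPTIN9, which builds cytoskeletal filaments, had more RUNX2 peaks than any other protein-coding gene of the arm, with 16 RUNX2 and 29 CBFB peaks. TIMP2, an inhibitor of matrix metalloproteinases, had 6 and 9, and the Polycomb gene CBX2 had 3 and 5. RPTOR, the subunit that defines the growth-controlling kinase complex mTORC1, had 6 and 13. ASPSCR1, a fusion partner of TFE3 in alveolar soft part sarcoma, had 9 RUNX2 and 13 CBFB peaks.

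The 16 RUNX2 peaks of SEPTIN9 showed many moderate peaks rather than 1 high peak. Their scores ran from 62.5 to 297 with a median of 112, where the score is the MACS peak score, read as −10 times the log10 of the p-value of a peak. Of the 16, 15 lay within the gene body, all 16 overlapped a CBFB peak, and 15 held the core anywhere in the peak. Among all RUNX2 peaks of the long arm, 94.9% overlapped a CBFB peak and 77.2% held the core in this sense. A core anywhere in a peak depends on its width, which was 1083 bp (median) on the arm and 947 to 2614 bp for the peaks of SEPTIN9. The highest, at chr17:75470757-75472142, lay 125 bp from an annotated start inside the gene. CUEDC1, at the step near 55 Mb, was next with 13 RUNX2 peaks, 12 of them on a CBFB peak, and their scores ran from 56.0 to 402.

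The 10 highest-scoring RUNX2 peaks of the arm all overlapped a CBFB peak, as did 94.9% of all RUNX2 peaks there. In introns lay 8 of the 10, and the share in introns over all RUNX2 peaks was not computed. An intron peak can still count as a promoter peak. Those in BAIAP2, UNK and CDC42EP4 lay 711, 2519 and 4902 bp from an annotated start, within the 5 kb used for promoters. The BAHCC1 repeat peak, at chr17:79397946-79400327 in a gene for a chromatin protein, had a score of 3100, the highest value in the list, which only 2 RUNX2 peaks reached. The peak of ASPSCR1 scored 1201, and that of BAIAP2, a regulator of actin-rich membrane protrusions, scored 1185. VMP1, a membrane protein of autophagy, followed with 641, ahead of CDC42EP4, an effector of CDC42, with 555. The remaining 5 ranged from 442 at ENPP7 to 547 at BAHCC1, with the long noncoding RNA gene ENSG00000267737 (495), RPTOR (484) and UNK (482) between them. Of the 10, 8 lay between 73 and 80 Mb, and VMP1 and CDC42EP4 lay between 55 and 73 Mb. Both BAHCC1 peaks fell inside 1 CBFB peak, chr17:79392953-79400377, which also had a score of 3100. That was the highest CBFB score too and was reached by 25 CBFB peaks, so 3100 may be the upper limit of the score.

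Copies of the core were unusual in number in the BAHCC1 peak. It held 69 copies on 1 strand and none on the other, over 1544 bp, and the commonest spacing between neighbouring copies was 28 bp. The median RUNX2 peak of the arm held 1 copy, and 103 of the 451 held none. The peak in B3GNTL1 at chr17:80929256-80930847 held even more, 91 copies in 1592 bp, but scored only 73.8. A peak in FOXK2 held 10 copies and scored 52.7, and no other peak held more than 8. Many copies of the core thus came with a very high score in BAHCC1 and with low scores in B3GNTL1 and FOXK2.

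Nearly all RUNX2 peaks of the long arm lay on a CBFB peak. The overlap by at least 1 bp was 428 of 451, or 94.9% (Clopper-Pearson 95% interval 92.4 to 96.7), against 83 of 91 (91.2%, 83.4 to 96.1) on the short arm and 94.2% in the whole list. Of the CBFB peaks, 406 of 1157 (35.1%, 32.3 to 37.9) lay on a RUNX2 peak, against 32.9% on the short arm and 33.8% in the whole list. By this measure the intervals of the arms overlapped. The paper reports a lower share of RUNX2 peaks on CBFB peaks for the whole list, and does not give its overlap rule. When at least 50% of each peak had to be shared, the order turned: 58.8% of long-arm RUNX2 peaks (54.1 to 63.3) and 79.1% of short-arm peaks (69.3 to 86.9) met the rule. A RUNX2 peak narrower than 50% of its CBFB peak cannot meet this rule, so the share depends on the widths of both. The part of width in this difference was not tested. The share was 80.9% up to 55 Mb, 63.0% from 55 to 73 Mb and 39.7% from 73 to 80 Mb (32.0 to 47.9). Where 2 peaks overlapped, their midpoints lay 177.5 bp apart (median) on the long arm, 98 bp on the short arm and 326 bp from 73 to 80 Mb. Midpoints of wide peaks that overlap can also lie further apart.

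Peak width moved with the share under the 50% rule. RUNX2 peaks had a median width of 864.5 bp up to 55 Mb, 1141 bp from 55 to 73 Mb and 1307.5 bp from 73 to 80 Mb, and the short arm had 858 bp. The CBFB medians were 1035, 1699 and 2149 bp in the 3 stretches and 1012.5 bp on the short arm. For both lists, the long arm had the widest median among the arms of chromosome 17 and the other chromosomes with at least 50 peaks, followed by chromosomes 1 and 6. The widths also differed within score groups. With each list divided into 5 score groups, RUNX2 peaks of the lowest group had a median width of 1029.5 bp from 73 to 80 Mb (22 peaks), 705.5 bp on the short arm (20 peaks) and 794 bp on the other chromosomes. In the highest group these medians were 1711, 1070 and 1123 bp. Scores were not matched within that group, which ran from 144 to 3100 from 73 to 80 Mb and from 155 to 489 on the short arm (16 peaks).

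Dense windows on other chromosomes showed part of the same pattern. The 60 windows elsewhere with 15 or more RUNX2 peaks held 1076 RUNX2 peaks of median width 1049 bp, and the remaining windows of other chromosomes had 920 bp. In the highest score group the medians were 1237 and 1112 bp. Overlap of 50% of each peak was met by 65.0% of RUNX2 peaks in those dense windows (62.0 to 67.8) and by 77.4% in the remaining windows. From 73 to 80 Mb both values lay further out, at 1307.5 bp and 39.7%.

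**Figure D4:**
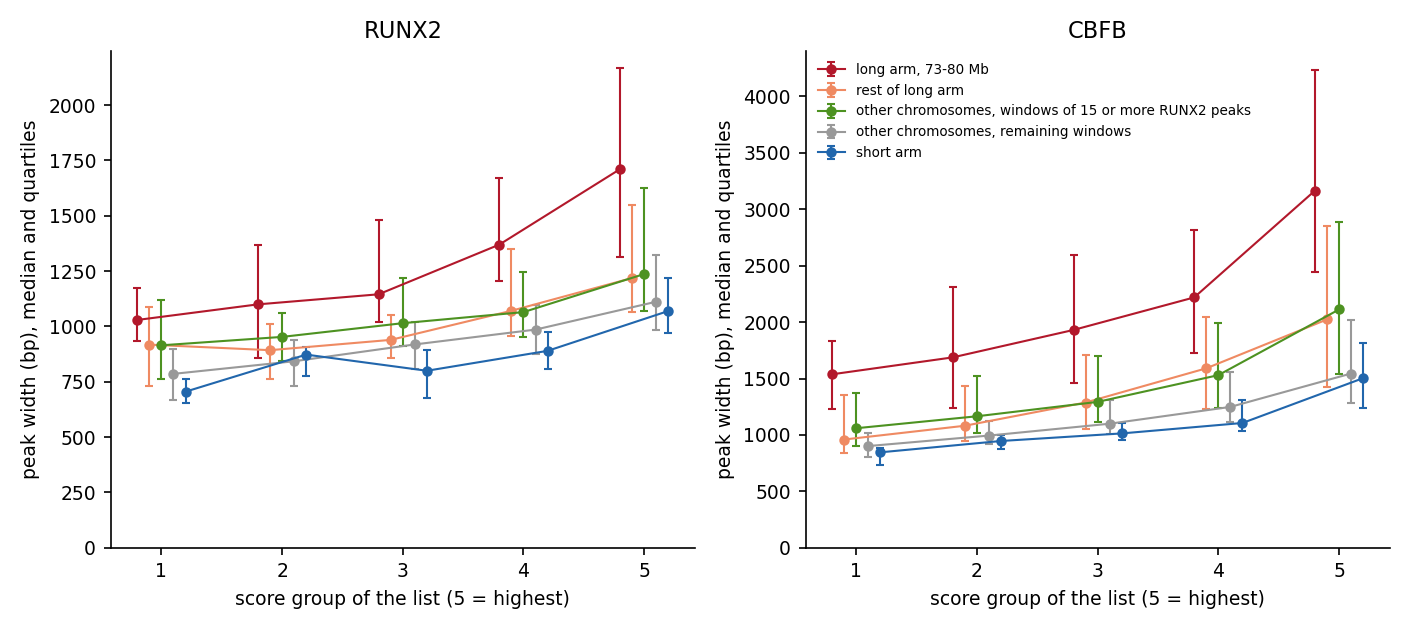
Median peak width in bp, with quartiles as bars, in the 5 score groups of the RUNX2 list (left) and the CBFB list (right). Peaks from 73 to 80 Mb were the widest in each score group, at 1711 bp for RUNX2 and 3166 bp for CBFB in the highest group.

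The long-arm peaks outside the overlap mostly had low scores. The 23 RUNX2 peaks without CBFB had scores from 50.7 to 167 with a median of 60.7, against 93.3 for those that overlapped, and 20 of the 23 were below the median of the whole list. The highest, at chr17:41437804-41439190 (167), and the next, in LINC00910 (140), stood within 10 kb of each other, and 4 of the 11 RUNX2 peaks from 41 to 42 Mb had no CBFB peak. They were followed by peaks in CUEDC1 (99.5), PIGS (82.0) and MYO1D (80.9). Among the highest CBFB peaks without RUNX2 were those in the intron of ENSG00000262898 (870), near PICART1 (622), and in SLC16A3 (576) and MYO15B (530). The first of these held the core 21 bp from its midpoint. Scores depend on the library and were not compared between the lists.

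Promoters took a similar share of peaks on both arms. The midpoint was within 5 kb of an annotated transcription start for 283 of 451 long-arm RUNX2 peaks, or 62.7% (58.1 to 67.2), against 64.8% on the short arm (54.1 to 74.6) and 45.9% over all chromosomes. For CBFB the shares were 61.4% on the long arm (58.5 to 64.2), 57.9% on the short arm and 46.2% over all chromosomes. Along the arm the RUNX2 share was 63.6% up to 55 Mb, 53.9% from 55 to 73 Mb and 70.5% from 73 to 80 Mb. Within gene bodies but outside promoters lay 23.9% of the long-arm RUNX2 peaks (20.1 to 28.2), against 20.9% on the short arm (13.1 to 30.7) and 34.1% over all chromosomes.

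The RUNX core was found less often near the midpoints of wide peaks. It lay within 100 bp of the midpoint in 145 of 451 long-arm RUNX2 peaks, or 32.2% (27.9 to 36.7), against 41.8% on the short arm (31.5 to 52.6) and 43.1% over all chromosomes. Windows of the same length in the flanks, within 2 kb of the peaks and outside any peak, held it in 13.2% on the long arm. Along the arm the share was 37.3% up to 55 Mb (28.2 to 47.0), 35.2% from 55 to 73 Mb and 24.4% from 73 to 80 Mb (17.9 to 31.9, with 14.3% in the flanks). CBFB peaks gave 29.7% on the long arm (27.1 to 32.5), 40.1% on the short arm and 41.5% over all chromosomes. Anywhere in the peak, the core was present in 77.2% of long-arm and 78.0% of short-arm RUNX2 peaks. Long-arm peaks were wider, with a median of 1083 bp against 858 bp. They held 1.58 copies of the core per kb against 1.73, with the BAHCC1 and B3GNTL1 peaks included. No background for whole peaks was computed. Among RUNX2 peaks of at least 1200 bp the share near the midpoint was 22.1% on the long arm (16.1 to 29.0) and 29.4% on other chromosomes (27.1 to 31.8), and among those from 900 bp to under 1200 bp it was 38.0% (31.0 to 45.5) and 47.8% (46.2 to 49.4). The long arm was lower in both width classes, with overlapping intervals in the wide class and separate ones in the other. Below 900 bp the shares were 38.9% (29.1 to 49.5) and 44.9% (43.4 to 46.4). The AP-1 motif TGANTCA was near the midpoint in 12.6% of long-arm and 4.40% of short-arm RUNX2 peaks (57 and 4 peaks) and 13.1% over all chromosomes, and the GC box GGGCGG in 18.0%, 20.9% and 13.6%. In CBFB peaks the arms stood in the other order, with AP-1 in 8.47% of long-arm and 11.1% of short-arm peaks and the GC box in 18.0% and 12.7%. Both motifs were searched on both strands. These counts are letter matches and not measured binding.

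**Figure D5:**
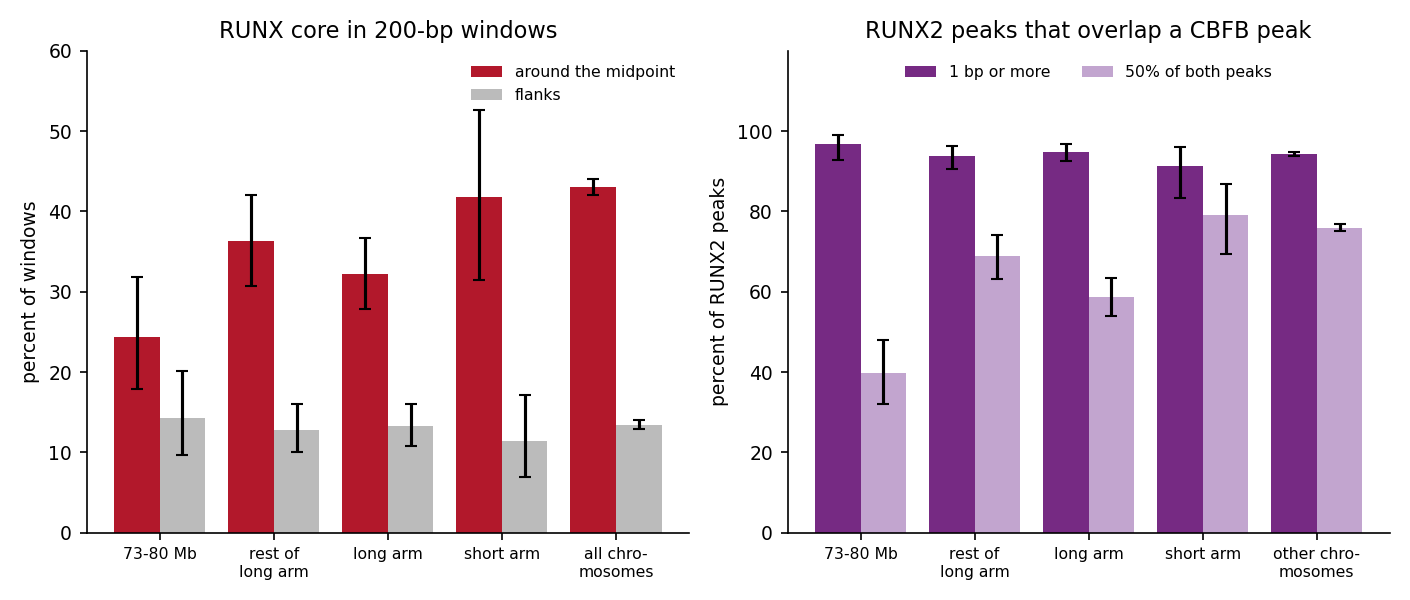
Left, percent of 200-bp windows with the RUNX core at RUNX2 peak midpoints (red) and in flanks (grey); right, percent of RUNX2 peaks that overlap a CBFB peak by 1 bp or more (dark) or by 50% of both peaks (light). Bars carry exact 95% intervals, and from 73 to 80 Mb the core share was 24.4% and the stricter overlap 39.7%.

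The share of genes with a RUNX2 peak nearby was higher from 73 to 80 Mb than on the rest of the long arm. That stretch was chosen for its RUNX2 peaks, so the difference follows from the choice and is a description only. A RUNX2 peak lay within 25 kb of 353 of 842 protein-coding genes, or 41.9% (38.6 to 45.3), against 108 of 347 (31.1%, 26.3 to 36.3) on the short arm and 36.0% of all protein-coding genes. For CBFB it was 593 of 842 (70.4%), against 55.6% on the short arm and 62.2% of all protein-coding genes. From 73 to 80 Mb, 112 of 145 genes (77.2%, 69.5 to 83.8) had a RUNX2 peak and 143 had a CBFB peak. Without that stretch the RUNX2 share of the long arm was 241 of 697 genes (34.6%, 31.0 to 38.2). Its interval overlapped that of the short arm. The median long-arm gene had 0 RUNX2 peaks and 1 CBFB peak within 25 kb. Neighbouring genes can share a peak, so such counts are not independent, and a nearby peak does not show that a gene is regulated.

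Of 24 bone, cartilage and matrix genes, 13 (54.2%) had a RUNX2 peak and 18 a CBFB peak within 25 kb, beside 41.9% and 70.4% of all protein-coding genes of the arm. The highest scores were at TIMP2 (303) and MRC2 (264), a receptor for collagen uptake, followed by the integrins ITGB4 (151, a peak inside the neighbouring GALK1) and ITGB3 (148). The genes below were picked for their known roles after their values were seen. COL1A1, a chain of type I collagen, had 2 RUNX2 peaks, with scores of 135 and 103, at 19749 bp downstream and 8978 bp upstream of the start of the gene, and both overlapped a CBFB peak. SOST, which encodes the inhibitor of bone formation sclerostin, had 2 of low score (61.4 and 58.6), and SOX9, the cartilage regulator, had 1 of 50.2. No RUNX2 peak lay within 25 kb of NOG, DLX3, DLX4, CHAD, IGFBP4, FKBP10, ITGA3, TBX4, WNT3, WNT9B or FZD2.

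Chromatin genes had a RUNX2 peak in 14 of 18 cases (77.8%) and a CBFB peak in 16. The RUNX2 share over all genes was 41.9% on the arm and 77.2% from 73 to 80 Mb, where part of this list lies. For CBFB these shares were 70.4% and 98.6%. Besides BAHCC1, the highest scores were at H3-3B (482), which encodes a histone H3.3 and shares its peak with UNK, at the hydroxylase gene JMJD6 (420) and at SMARCD2 (322), a subunit of SWI/SNF complexes. CBX2 and CBX8 shared their highest peak (217), which lay 84 bp from a start and held no core. SUZ12, SMARCE1, KANSL1 and SIRT7 had no RUNX2 peak. Genes of growth control and cancer had one in 15 of 24 cases (62.5%), with a CBFB peak in 22, against the same shares over all genes. The highest scores were at RPTOR (484) and at SPHK1, which makes sphingosine 1-phosphate (289, a peak inside the neighbouring PRPSAP1). SOCS3 (244), a suppressor of cytokine signalling, and the transcription factor STAT3 (216) followed. BRCA1, ERBB2, TOP2A, STAT5A, STAT5B, ETV4, SPOP, RAD51C and BRIP1 had none.

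Cytoskeleton and metabolism genes of the distal arm had a RUNX2 peak in 15 of 18 cases (83.3%), and 17 had a CBFB peak. Most of them lie from 73 to 80 Mb, where the shares of all genes were 77.2% and 98.6%, so these counts are near the local share. BAIAP2 (1185), USP36 (303, the peak of TIMP2), SEPTIN9 (297) and DNAH17 (278) were highest, and ACTG1, MAFG and GAA had none. On the same arm, 3 of 62 keratin and keratin-associated genes had a RUNX2 peak and 11 a CBFB peak, beside 41.9% and 70.4% of all genes of the arm. The 3 were KRT31, KRT34 and KRT37, which shared 1 peak with a score of 133. None of the 10 HOXB genes had a RUNX2 peak, and 3 of them, HOXB1, HOXB2 and HOXB3, shared a CBFB peak with a score of 91.1. Among the 19 CC chemokine genes of the arm, counted after the windows were seen, none had a RUNX2 peak and 1 had a CBFB peak. The keratin, HOXB and CC chemokine genes all lie before 55 Mb. That stretch had 21.6 RUNX2 peaks per 100 genes, against 53.6 on the whole arm. The shares of the whole arm are therefore a high comparison for these families, and the local share was not computed.

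At the arm boundary, the last RUNX2 peak of the short arm was chr17:22020331-22021262 with a score of 107, and the first of the long arm was chr17:25586211-25587250 with a score of 91.5. For CBFB they were chr17:21360357-21361255 (142) and chr17:25480123-25480927 (80.1). The choice of the boundary between them therefore moved no peak.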

How the data were processed

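The authors called peaks per library with MACS 1.4.1 on hg19 after CASAVA 1.8.2, per the submitters' processing notes, and deposited 2 lists with a position and a score per peak. The deposited score was taken as −10 times log10 of the p-value of a peak. The aligner, the calling limit and whether the input served as control are not given in the sources used here. Depth is unknown and the input library was not analysed.

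Overlap, distance and motif counts were computed with numpy 2.4.6, scipy 1.17.1 and pandas 2.3.3 under Python 3.11.15, tested on simulated data and drawn with matplotlib 3.10.9. GENCODE release 44, lifted to GRCh37, gave the genes (20163 protein-coding). Overlap meant at least 1 bp, a promoter 5 kb to either side of a start, and a nearby gene a body within 25 kb. Intervals are exact at 95%.

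Members and gene lists were chosen with earlier results of these data known. Named were the 10 RUNX2 peaks of the highest score, the 5 highest of each list without the other, the gene with the most RUNX2 peaks in each window from 73 to 80 Mb, and the 4 highest members of each gene list with all members without a peak. Sequences were shown for up to 8 of these, and 1 that touched a UTR was left out. One named peak is not reported here. The 55 and 80 Mb edges, width groups, score groups, dense windows elsewhere and settings without 73 to 80 Mb were added after seeing the data.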

Additional observations from a re-analysis of the deposited data

How the results depend on the processing

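Each choice was changed in turn, in 31 alternatives, of which 8 moved a value by less than its interval. In the following, every value is for the long arm. RUNX2 peaks per Mb were 4.51 for peaks at or above the median score, 7.01 with peaks under 5 kb apart merged and 6.03 without 73 to 80 Mb, and CBFB peaks per Mb 11.2, 15.3 and 16.6, and 8.84 with as many top CBFB peaks as RUNX2 peaks. The long arm was above the short arm in all of these. RUNX2 overlap was 58.8% with 50% of each peak, 49.9% with midpoints within 200 bp, 78.3% with the top CBFB peaks and 98.8% for RUNX2 peaks at or above the median score. CBFB overlap was 22.9%, 19.4% and 67.0% in the same 3 CBFB settings. The long arm was below the short arm with 50% of each peak (28.6% of short-arm CBFB peaks) and with midpoints within 200 bp (70.3% and 25.4% on the short arm), and above it otherwise. Both of these rules depend on peak widths, which differed between the arms. Promoter and core shares were below the short arm in every setting tried, but in the main setting the intervals of the arms overlapped for both. Outside these alternatives, the RUNX2 share within 1 kb of a protein-coding start had the other order, at 27.7% on the long arm and 26.4% on the short arm. The promoter share was 35.3% within 1 kb and 45.0% for starts of protein-coding genes. The core share was 16.0% within 50 bp, 77.2% anywhere in the peak and 16.6% for the 7-base form TGTGGTT. Genes with a RUNX2 peak were 27.3% within 5 kb, 22.7% at a start and 27.3% for peaks at or above the median score. From 73 to 80 Mb lay 34.6% of RUNX2 and 29.8% of CBFB peaks. No paired analysis was possible because the study made a single library with each antibody. Depth limits could not be computed without read counts.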
